A study of Mus musculus with 6 samples.

Results

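The genes that copy DNA and divide cells were examined in the gastrocnemius, the large calf muscle, of HrasG12V mice and their wild-type (WT) littermates. They are 40 of the 23997 gene symbols listed for each mouse, taken by name, and all 40 were found. The list was chosen with earlier results of these data known. Of the 40 genes, 16 act in DNA replication or at the entry into S phase, and 24 act in mitosis. RNAseq had been done on 6 mice at 21 days of age, 1 library per mouse, with 3 mice per genotype and no treatment. The HrasG12V group was mice 2276, 2278 and 2279, with the genotype Caggs-Cre+/HrasG12V/+, and the WT group was mice 2277, 2280 and 2281, with the genotype Caggs-Cre-/HrasflG12V/+. All 6 therefore carried one copy of the engineered allele, which stays unrecombined without Cre, so the presence of Cre and the expression of HrasG12V cannot be told apart. Caggs-Cre is driven by a ubiquitous promoter, so the mutant allele is not limited to muscle fibers and its cells of origin are not separated in whole muscle. The background was a mix of inbred strains that included SWR/J and C57BL/6J, and neither the sex nor the litter nor a batch of a single mouse is on its label.

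The values are FPKM, sequenced fragments scaled by transcript length and by the size of the library, so that levels can be compared between genes. The study's methods give an approximate read depth common to all samples and no count for each library, so the precision is taken from the spread between mice. The sum of FPKM was 413020 to 814013 per library, highest in mouse 2276, whereas the libraries' medians over the genes tested were 6.39 to 6.64 FPKM. Hras itself had an FPKM of 36.8, 36.0 and 51.8 in WT mice 2277, 2280 and 2281 and of 58.8, 28.9 and 16.002 in HrasG12V mice 2276, 2278 and 2279. These values sum both alleles and do not check the genotype. Of 8 muscle fiber genes, Tnni2, Actn3 and Pvalb were abundant in all 6 libraries, but Acta1 and Myh4 were listed at 0 in every library and Ckm in 5 of 6, Myh1 was at 0 in mice 2277 and 2280 and Tnnt3 in mouse 2276, so these entries are no check of the tissue.

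Mature muscle fibers have left the cell cycle, and cell cycle transcripts in a growing muscle come from the dividing cells among them, such as satellite cells, fibroblasts, endothelial cells and blood cells. The Mcm2 to Mcm7 proteins form the ring-shaped helicase that is loaded on origins by Cdc6 and Cdt1 and started with the help of Cdc45. The sliding clamp Pcna holds the polymerases on DNA, while ribonucleotide reductase (Rrm1, Rrm2), Tyms and Tk1 supply deoxynucleotides. Cyclins A and B with Cdk1 then drive mitosis, in which Aurora and Polo kinases, kinesins and the spindle checkpoint move the chromosomes and the anaphase-promoting complex ends the phase. Ras signalling through the MAPK pathway induces D cyclins, which release E2F factors from the retinoblastoma protein at the start of this series. In bulk muscle, a higher level of these transcripts can come from more dividing cells or from more RNA per cell, and these cannot be told apart.

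The promoters of both classes are shown first because their letters are independent of the measured levels. E2F factors bind sites near the start of many replication genes, and the cell cycle genes homology region (CHR), often with CCAAT boxes upstream, is known from genes expressed in G2 and mitosis. The letters TTTGAA or TTCGAA (CHR), CCAAT, and TTTNNCGC with each N a C or a G (E2F) were searched on both strands in RefSeq promoters of GRCm38.p6, each 300 bases long from 250 bases before the transcript start to 50 bases after it. Promoters were matched for 34 of the 40 genes, and Prc1 and Mcm7 had more than one, which made 21 mitotic and 15 replication promoters. Stretches before the start are printed for 4 mitotic genes, with CHR and CCAAT matches in capitals, and for 2 helicase genes, with E2F matches in capitals.
Ube2c (chr2:164769829-164769928, plus strand): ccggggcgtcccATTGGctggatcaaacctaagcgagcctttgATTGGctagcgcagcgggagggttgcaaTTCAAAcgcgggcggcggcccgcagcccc
Kif11 (chr19:37376282-37376381, plus strand): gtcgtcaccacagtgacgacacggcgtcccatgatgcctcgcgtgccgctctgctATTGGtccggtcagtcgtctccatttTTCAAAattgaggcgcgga
Cdk1 (chr10:69352913-69353012, minus strand): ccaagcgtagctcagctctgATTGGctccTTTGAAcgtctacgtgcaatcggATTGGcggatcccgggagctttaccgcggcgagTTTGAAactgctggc
Top2a (chr11:99024200-99024289, minus strand): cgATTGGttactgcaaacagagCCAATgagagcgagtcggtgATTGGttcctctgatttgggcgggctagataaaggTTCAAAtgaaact
Mcm5 (chr8:75109349-75109467, plus strand): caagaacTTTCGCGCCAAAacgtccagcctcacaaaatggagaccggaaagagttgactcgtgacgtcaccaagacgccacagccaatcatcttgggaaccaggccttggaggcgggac
Mcm6 (chr1:128359706-128359865, minus strand): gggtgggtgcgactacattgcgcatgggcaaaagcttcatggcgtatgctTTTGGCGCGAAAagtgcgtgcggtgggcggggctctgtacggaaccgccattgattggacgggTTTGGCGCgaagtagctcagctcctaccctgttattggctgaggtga

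A CHR match lay 29 bases before the start in Ube2c and 19 bases before it in Kif11, with a CCAAT match upstream of each. Cdk1 had 2 CHR and 2 CCAAT matches in the stretch shown, and Top2a had 1 CHR and 3 CCAAT matches. Distances are counted from the start of the transcript in the promoter table, which in Mcm5 and Top2a lies inside the gene's span, beyond the end of the stretch printed. In Mcm5 the matches begin 153 and 149 bases before that start and overlap each other on opposite strands, and in Mcm6 a like pair and 1 more match begin 110, 106 and 47 bases before it. Over all the mitotic promoters, 17 of 21 (81.0%) held a CHR match, against 3 of 15 replication promoters (20%) and 19.2% of the 32851 promoters in the table. A CCAAT match was present in 19 of 21 mitotic promoters (90.5%), 10 of 15 replication promoters (66.7%) and 37.4% of all promoters. Both stood together in 17 of 21 mitotic promoters, 3 of 15 replication promoters and 7.52% of all promoters. E2F letters went the other way, with 5 of 15 replication promoters (33.3%), 1 of 21 mitotic promoters (4.76%) and 2.26% of all. The G and C content differed as well, with a median of 60.7% in mitotic, 57.3% in replication and 52.7% in all promoters. These matches describe letters in a window and not bound sites.

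Between the genotypes, 4 of the 6 Mcm ring genes were higher in all 3 HrasG12V mice, while most mitotic genes were highest in mouse 2278, next in mouse 2279 and lowest of the mutants in mouse 2276, where their median was near WT. On log2(FPKM + 0.1), 30 of the 40 genes passed a mean of 0.5 FPKM over the 6 mice and were tested with limma among 13359 genes. Only 19 of them had a WT mean of at least 0.5 FPKM, and 11 (9 of them mitotic) passed through the HrasG12V mice, so counts over those tested cannot stand for all 40. At an unadjusted limma p below 0.05, 7 of the 30 were higher in HrasG12V mice and 0 were lower, where 5.18% of all genes tested were higher and 4.99% were lower. The 7 were Mcm2, Mcm3, Mcm5, Mcm7, Ccne1, Ccna2 and Ube2c, and all were past a fold change of 1.5. None of the 30 passed after Benjamini-Hochberg adjustment, where limma adjusted p ranged from 0.369 to 0.995 and 0.0599% of all genes tested passed. Without the filter, 8 of the 40 were higher at an unadjusted p below 0.05, with Cdca8 added, where 4.91% of 19388 genes were higher.

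Every HrasG12V mouse lay above every WT mouse for 10 of the 40 genes, and the reverse held for 0. Among the 19388 symbols above 0 in any mouse these shares were 7.55% and 8.54%. The 10 were Mcm2, Mcm3, Mcm5, Mcm7 and Ccne1 among replication genes and Ccna2, Ube2c, Plk1, Ttk and Cdca8 among mitotic genes. The fold change was above 0 for 38 of 40 genes (28 of the 30 tested, with 46.6% of all genes tested). The median log2 fold change of the genes tested was 0.90 for the mitotic genes and 0.34 for the replication genes, against -0.03 for all genes tested, and with all members included it was 0.74 and 0.37. At a pseudocount of 1 the medians of the genes tested were closer, at 0.42 and 0.27.

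**Figure D1:**
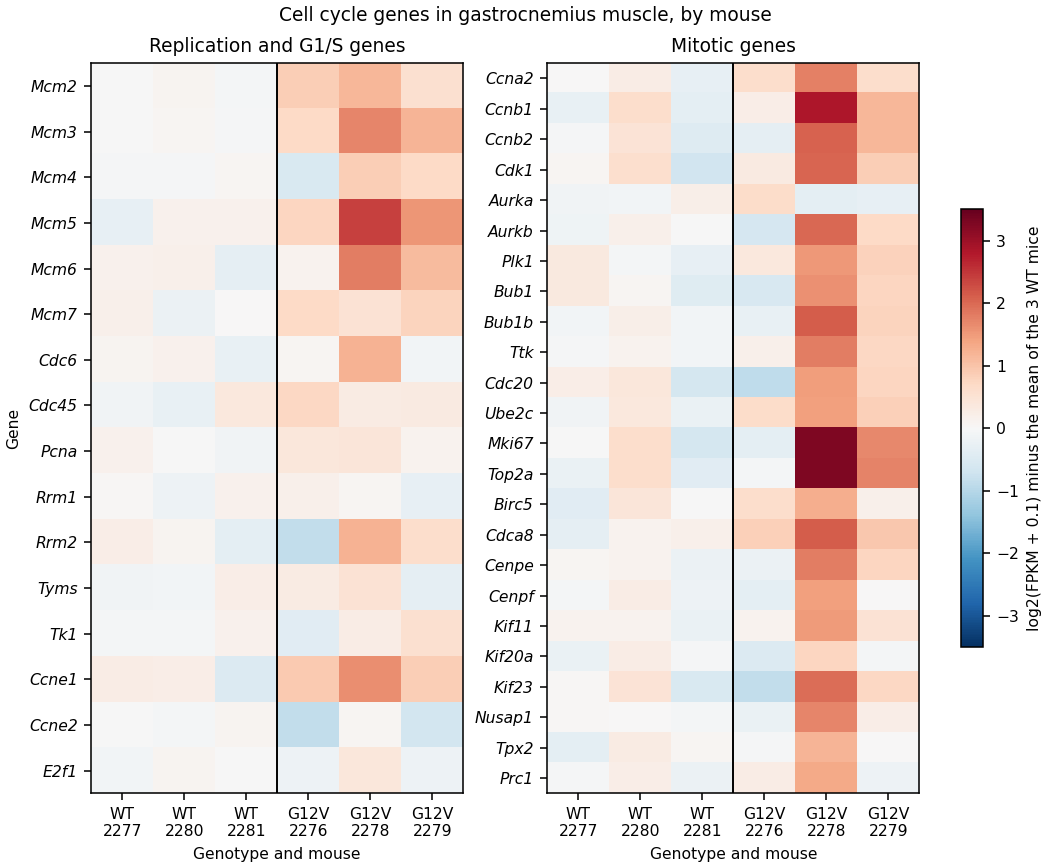
Heat map of log2(FPKM + 0.1) minus the mean of the 3 WT mice (colour scale, red above and blue below) for the 16 replication and G1/S genes and the 24 mitotic genes (rows) in each mouse (columns, WT left of the line and HrasG12V right of it). Mouse 2278 was the highest of the 6 for 34 of the 40 genes (19.2% of 19388 symbols), whereas mouse 2276 stood above all WT mice for Mcm2, Mcm3, Mcm5 and Mcm7. Mouse 2276 was below all WT mice for 8 of 24 mitotic genes and for 5080 of 13359 genes tested.

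The helicase and its loading factors held 4 of the 7 genes called. Mcm2 (mouse Entrez gene 17216, chr6:88883474-88898780 in GRCm38) had an FPKM of 1.77, 1.90 and 1.70 in WT mice 2277, 2280 and 2281 and of 3.32, 4.08 and 2.66 in HrasG12V mice 2276, 2278 and 2279. Its groups did not overlap, and the log2 fold change was 0.85 (standard error 0.20, limma unadjusted p = 0.00423, adjusted p = 0.369). Mcm3 (17215, chr1:20802966-20820312) had an FPKM of 0.968, 1.04 and 0.950 in the WT mice and of 1.65, 3.45 and 2.39 in the HrasG12V mice. The SD of the WT mice was 0.0478 FPKM, and the log2 fold change was 1.20 (standard error 0.29, limma unadjusted p = 0.00495, adjusted p = 0.378).

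Mcm5 (17218, chr8:75109468-75128439) was the member with the largest log2 fold change among replication genes. Its FPKM was 0.304, 0.454 and 0.450 in WT mice and 0.744, 2.52 and 1.34 in HrasG12V mice 2276, 2278 and 2279. The mean was 0.403 ± 0.0855 (SD, n = 3) against 1.53 ± 0.904 (SD, n = 3), so the WT mean was under the filter. The log2 fold change was 1.56 (standard error 0.47, limma unadjusted p = 0.0141, adjusted p = 0.426). Mcm7 (17220, chr5:138164583-138172111) was the most abundant of the 6 ring subunits, with an FPKM of 4.62, 3.57 and 4.18 in WT mice and of 6.66, 5.91 and 7.12 in HrasG12V mice. It was the ring subunit in which the HrasG12V mice were closest together, at 6.56 ± 0.609 (SD, n = 3) against 4.12 ± 0.531, with a log2 fold change at 0.66 (standard error 0.16, limma unadjusted p = 0.00496, adjusted p = 0.378). The unadjusted p of Mcm2, Mcm3, Mcm5 and Mcm7 stayed below 0.05 in each of the 6 sets of 5 mice, with log2 fold changes of 0.70 to 1.004, 0.94 to 1.46, 1.15 to 1.97 and 0.56 to 0.75. With all libraries rescaled to the same FPKM sum, none of the 4 was called (limma unadjusted p = 0.0560, 0.0595, 0.0580 and 0.0806).

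The remaining ring subunits, Mcm4 and Mcm6, were not called with all 6 mice. Without mouse 2276 both were called (log2 fold changes 0.78 and 1.44, limma unadjusted p = 0.00113 and 0.00346), as both were with array weights and Mcm6 under quantile normalization. Mcm6 had an FPKM of 0.867 to 1.27 in WT mice and of 1.22, 4.08 and 2.51 in HrasG12V mice 2276, 2278 and 2279, so mouse 2276 lay within the WT range (log2 fold change 1.002, limma unadjusted p = 0.0562, adjusted p = 0.501). Mcm4 had an FPKM of 1.90 to 2.04 in WT mice and of 1.31, 3.65 and 3.22 in HrasG12V mice, with mouse 2276 below every WT mouse. Thus 4 of the 6 subunits of one complex were above the WT range in all mutants and the other 2 were not. The loading factor Cdc6 was not tested, with an FPKM of 0.159, 0.168 and 0.09999 in WT mice and of 0.153, 0.457 and 0.125 in HrasG12V mice, where mouse 2278 alone was high. Cdc45 had an FPKM of 0.872 to 1.40 in WT mice and of 1.31 to 1.82 in HrasG12V mice, highest in mouse 2276.

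**Figure D2:**
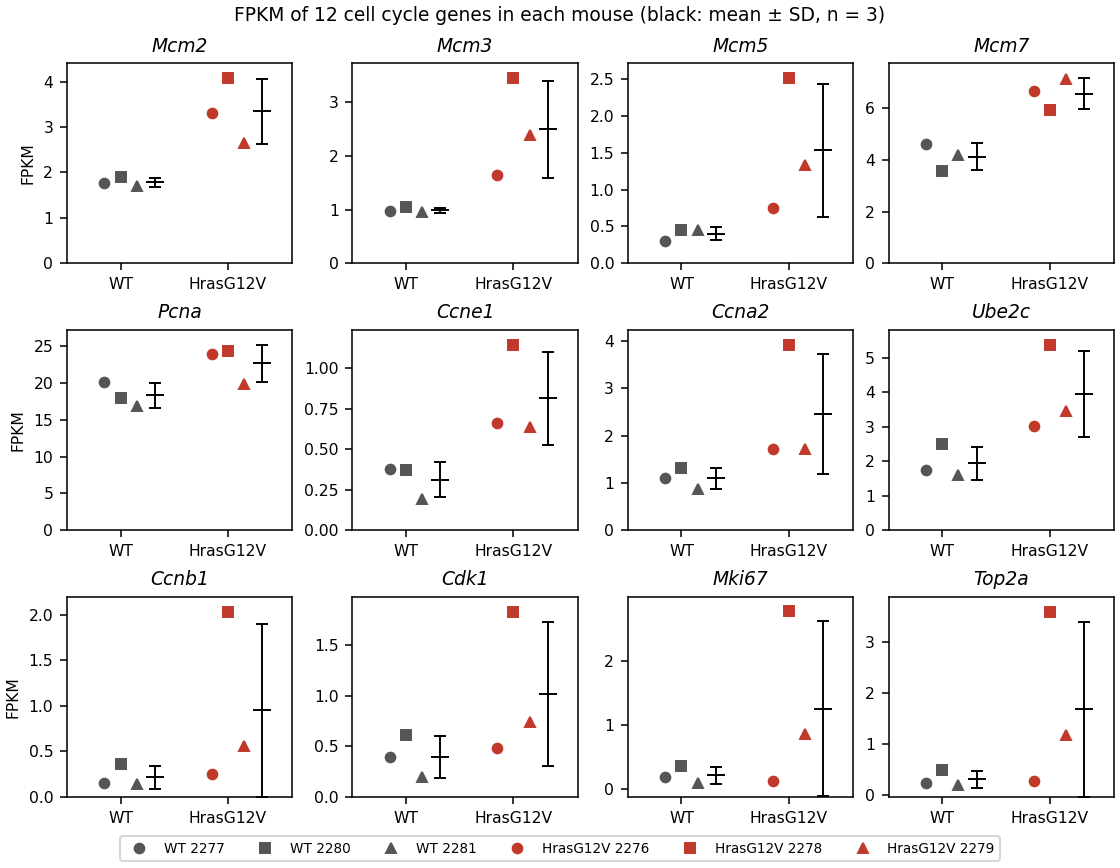
FPKM (linear axes) of 12 genes in the 3 WT mice (grey) and the 3 HrasG12V mice (red), 1 symbol per mouse, with the mean and SD of each group in black (n = 3). The groups did not overlap for Mcm2, Mcm3, Mcm5, Mcm7, Ccne1, Ccna2 and Ube2c, while Ccnb1, Cdk1, Mki67 and Top2a were high in mouse 2278 and overlapped with WT in mouse 2276.

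The clamp and the enzymes of nucleotide supply were not called. Pcna was the most abundant of the 40 genes, with an FPKM of 20.1, 18.0 and 16.8 in WT mice and of 23.9, 24.3 and 19.8 in HrasG12V mice 2276, 2278 and 2279. Mouse 2279 was just below the highest WT mouse, and the log2 fold change was 0.31 (standard error 0.17, limma unadjusted p = 0.114, adjusted p = 0.591). Rrm1, the large subunit of ribonucleotide reductase, had an FPKM of 8.92 to 11.3 in WT mice and of 8.33 to 11.5 in HrasG12V mice. Rrm2, its cell cycle dependent small subunit, spread far more, with an FPKM of 1.70, 1.55 and 1.12 in WT mice and of 0.751, 3.46 and 2.27 in HrasG12V mice. Here the HrasG12V mice lay on both sides of the WT range, with mouse 2276 the lowest of all 6, and the log2 fold change was 0.33 (standard error 0.52, limma unadjusted p = 0.555, adjusted p = 0.881).

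Tyms, the thymidylate synthase, had an FPKM of 0.701, 0.725 and 0.926 in WT mice and of 0.972, 1.15 and 0.6004 in HrasG12V mice (log2 fold change 0.16, standard error 0.33, limma unadjusted p = 0.650, adjusted p = 0.914). The thymidine kinase Tk1 had an FPKM of 2.88 to 3.39 in WT mice and of 2.29 to 4.59 in HrasG12V mice. All 5 of these genes overlapped between the groups. RefSeq lists processed copies of Pcna and Tyms, as it does of Ccnb1 and Ccnb2, so reads shared with these copies make the levels of those 4 genes less certain.

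Among the G1/S regulators, only Ccne1 was called. Ccne1 (12447, chr7:38097984-38107490), a cyclin that drives entry into S phase with Cdk2, had an FPKM of 0.377, 0.370 and 0.190 in WT mice and of 0.662, 1.14 and 0.634 in HrasG12V mice. The groups did not overlap, and the log2 fold change was 1.14 (standard error 0.45, limma unadjusted p = 0.0422, adjusted p = 0.483). The call was lost without WT mouse 2281 (limma unadjusted p = 0.0695) and without HrasG12V mouse 2278 (limma unadjusted p = 0.0545), and under quantile normalization (0.83, limma unadjusted p = 0.0890). Its WT mean of 0.312 FPKM was under the filter. Its paralog Ccne2 had an FPKM of 1.17 to 1.31 in WT mice and of 0.632, 1.30 and 0.760 in HrasG12V mice, so mice 2276 and 2279 were below every WT mouse, and it had the lowest log2 fold change of the 40 genes, -0.48 (limma unadjusted p = 0.176, adjusted p = 0.657). E2f1, the activator of many replication genes, had an FPKM of 1.07, 1.23 and 1.13 in WT mice and of 0.989, 1.53 and 1.01 in HrasG12V mice, at a log2 difference of 0.013 (standard error 0.26, limma unadjusted p = 0.960, adjusted p = 0.992).

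Among mitotic genes, 2 of the 15 tested were called. Ube2c (68612, chr2:164769929-164772902), the ubiquitin-conjugating enzyme of the anaphase-promoting complex, had an FPKM of 1.74, 2.49 and 1.601 in WT mice and of 3.02, 5.37 and 3.44 in HrasG12V mice 2276, 2278 and 2279. All HrasG12V mice were above all WT mice, with a log2 fold change at 0.97 (standard error 0.28, limma unadjusted p = 0.0108, adjusted p = 0.398). The call held in each of the 6 sets of 5 mice, with log2 fold changes of 0.73 to 1.15. Ccna2 (12428, chr3:36564865-36573038), the cyclin of S phase and early mitosis, had an FPKM of 1.101, 1.31 and 0.870 in WT mice and of 1.72, 3.92 and 1.71 in HrasG12V mice. Mouse 2278 was well above the other mutants, and the log2 fold change was 1.004 (standard error 0.37, limma unadjusted p = 0.0302, adjusted p = 0.471), which lost the call without WT mouse 2277 (limma unadjusted p = 0.0731) or 2281 (limma unadjusted p = 0.101).

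The common proliferation markers had larger log2 fold changes than these with all 6 mice, and wider errors. Mki67, which coats mitotic chromosomes, had an FPKM of 0.196, 0.359 and 0.0960 in WT mice and of 0.135, 2.78 and 0.855 in HrasG12V mice 2276, 2278 and 2279. Mouse 2276 was within the WT range, mouse 2278 was 12.8 times the WT mean and mouse 2279 was 3.94 times it, with a log2 fold change at 1.53 (standard error 0.96, limma unadjusted p = 0.157, adjusted p = 0.636). Top2a, the topoisomerase that untangles sister chromatids, had an FPKM of 0.223, 0.487 and 0.192 in WT mice and of 0.265, 3.59 and 1.18 in HrasG12V mice. The order of the mutants was the same as for Mki67, and the log2 fold change was 1.65 (standard error 0.86, limma unadjusted p = 0.0974, adjusted p = 0.564), the highest of the 30 genes tested. Without mouse 2278 the log2 fold changes of Mki67 and Top2a were 0.67 and 0.84, below the 1.15 of Mcm5 in that set, and without mouse 2276 they were 2.47 and 2.51.

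The cyclin-dependent kinase of mitosis and its B cyclins had the same order. Cdk1 had an FPKM of 0.391, 0.609 and 0.195 in WT mice and of 0.484, 1.83 and 0.743 in HrasG12V mice (log2 fold change 1.07, standard error 0.59, limma unadjusted p = 0.115, adjusted p = 0.592). Ccnb1 had an FPKM of 0.147, 0.354 and 0.135 in WT mice and of 0.252, 2.03 and 0.561 in HrasG12V mice (log2 fold change 1.41, standard error 0.78, limma unadjusted p = 0.115, adjusted p = 0.592). Mouse 2276 lay within the WT range for both. Birc5, the survivin subunit of the chromosomal passenger complex, had an FPKM of 0.592, 1.12 and 0.812 in WT mice and of 1.32, 2.12 and 0.948 in HrasG12V mice (log2 fold change 0.70, standard error 0.38, limma unadjusted p = 0.108, adjusted p = 0.581), and here mouse 2279 was the one within the WT range. Aurkb, the kinase of the same complex, was not tested, with an FPKM of 0.149, 0.215 and 0.174 in WT mice and of 0.0867, 1.01 and 0.355 in HrasG12V mice.

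Of the other mitotic genes, 9 of 24 in all were too low to test, with WT means down to 0.0427 FPKM. These were the checkpoint kinases Bub1, Bub1b and Ttk, the passenger subunit Cdca8, the centromere proteins Cenpe and Cenpf, the kinesins Kif20a and Kif23, and Aurkb. Ccnb2, Plk1, Cdc20, Kif11, Nusap1, Tpx2 and Prc1 were tested and not called, with log2 fold changes of 0.39 to 0.97. In Prc1, as in Birc5 and by a small margin in Ccna2, mouse 2279 was below mouse 2276. Aurka, the centrosome kinase, had another order again, and its FPKM was 1.90, 1.95 and 2.40 in WT mice, 3.31 in mouse 2276, and 1.63 and 1.67 in mice 2278 and 2279. It was the only mitotic gene of the 24 in which mouse 2278 was not the highest of the 6.

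**Figure D3:**
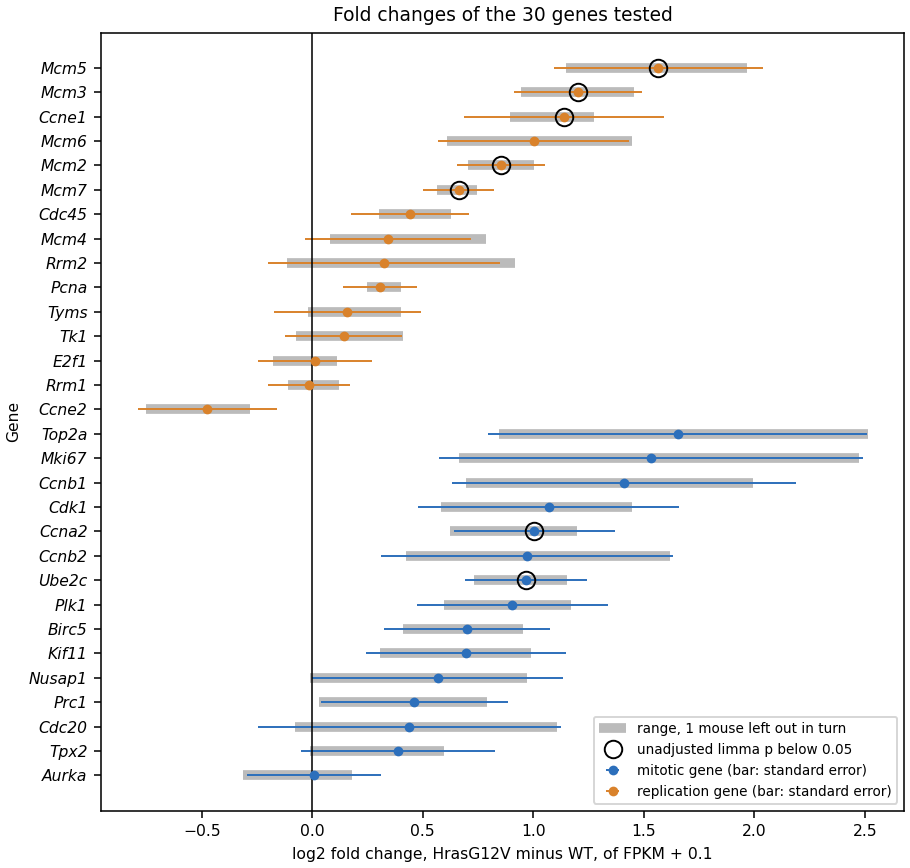
Log2 fold change (HrasG12V minus WT, of FPKM + 0.1) of the 30 genes tested, orange for replication and blue for mitotic genes, with the limma standard error as a thin bar, the range over the 6 sets of 5 mice as a grey bar, and a ring where the unadjusted limma p was below 0.05. Mitotic genes reached 1.65 with wide errors, whereas Mcm2 at 0.85 and Mcm7 at 0.66 had narrow ones, and Ccne2 was the lowest at -0.48.

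Both classes are set side by side by mouse here. Mouse 2278 was the highest of the 6 for 23 of 24 mitotic genes and 11 of 16 replication genes, where 19.2% of 19388 symbols had it highest. The order 2278 above 2279 above 2276 held for 20 of 24 mitotic genes and 7 of 16 replication genes, against 20% of those symbols. Of the 13359 genes tested, mouse 2276 was above every WT mouse for 5756, within their range for 2523 and below them for 5080. Of the 24 mitotic genes it was above for 8, within for 8 and below for 8. For the replication genes it was above for 9 of 16, and for 5 of the 8 helicase and loading genes, where 35.8% of the 19388 symbols had it above. As medians over each class of the log2 difference from the WT mean, the mitotic genes were at -0.05, 1.74 and 0.73 in mice 2276, 2278 and 2279. The replication genes were at 0.23, 0.69 and 0.56, and the 8 helicase and loading genes at 0.69, 1.18 and 0.74. All genes tested were at 0.04, -0.08 and -0.04. The difference between the classes was not tested, since genes are not replicates of a mouse.

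The members' own counts moved with the mice included. Without mouse 2276, 10 of the 15 mitotic and 9 of the 15 replication genes tested were called higher, but so were 12.4% of all genes. The mitotic genes added were Ccnb1, Ccnb2, Cdc20, Cdk1, Kif11, Mki67, Plk1 and Top2a, and the replication genes added were Mcm4, Mcm6, Rrm2 and Tk1. Leaving out WT mouse 2277 or 2281 took the mitotic count from 2 to 1, where the share of all genes called higher was 2.43% and 2.22%. Without mouse 2278 Ccne2 was called lower (limma unadjusted p = 0.0171), as were 5.59% of all genes tested. With mouse 2276 as the only mutant, a set chosen after seeing the data, the lone mutant is assumed to vary like the WT mice. Mcm2, Mcm3, Mcm5, Mcm7 and Pcna then had a limma unadjusted p below 0.05, as did Aurka alone among mitotic genes, where 25.5% of all genes were higher and 21.7% lower. On the other side, Mcm4, Rrm2 and Ccne2 were lower at the same threshold in that set. The log2 fold changes of Mcm2, Mcm3, Mcm5 and Mcm7 were 0.86, 0.69, 0.76 and 0.69 in that mouse alone, and those of Mki67 and Top2a were -0.35 and -0.063.

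Other genes of both pathways were taken from lists of 47 replication and 60 mitosis genes. Of the 41 other replication genes tested, 8 were higher at an unadjusted limma p below 0.05 and 0 were lower, where 5.18% and 4.99% of all genes tested were. Of the 41, 5 passed the filter only through the HrasG12V mice, Cdt1, Gins2 and Uhrf1 among them, so this count is no support for a difference. The 8 were Cdt1, Fen1, Gins2, Orc6, Pold1, Pole2, Rfc3 and Uhrf1, which act in origin licensing, the helicase's partner complex, the polymerases, the clamp loader, the processing of Okazaki fragments and the maintenance of DNA methylation. Cdt1, which loads the Mcm ring, had the highest log2 fold change of the list, with an FPKM of 0.352, 0.421 and 0.284 in WT mice and of 0.899, 1.40 and 1.30 in HrasG12V mice (1.51, standard error 0.35, limma unadjusted p = 0.00379, adjusted p = 0.354). Its inhibitor geminin, Gmnn, had the lowest, with an FPKM of 2.97, 2.32 and 2.07 in WT mice and of 1.82, 1.76 and 1.68 in HrasG12V mice (-0.45, standard error 0.19, limma unadjusted p = 0.0554, adjusted p = 0.501). Both genes had groups that did not overlap. The list's median over all 47 genes was 0.40, 0.46 and 0.33 in mice 2276, 2278 and 2279, about level between them.

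Of the 26 other mitosis genes tested, 4 were higher (Cdc25b, Cdca3, Racgap1 and Smc4) and 0 were lower, against the same 5.18% and 4.99% of all genes tested. Cdca3 is 1 of 5 genes of the 26 that passed the filter only through the HrasG12V mice. Cdca3, a trigger of mitotic entry, was highest, with an FPKM of 0.526, 0.408 and 0.493 in WT mice and of 0.919, 1.99 and 1.48 in HrasG12V mice (log2 fold change 1.38, standard error 0.35, limma unadjusted p = 0.00660, adjusted p = 0.382). Ska3, of the kinetochore, was lowest at -0.087 (limma unadjusted p = 0.833, adjusted p = 0.966). The median over all 60 genes was -0.04, 1.44 and 0.55 in mice 2276, 2278 and 2279, near the medians of the 24 mitotic genes. Mouse 2278 was the highest of the 6 for 52 of these 60 genes, and for 18 of the 47 other replication genes, where mouse 2276 was the highest for 18 as well. In the background, mouse 2278 was the highest for 19.2% of 19388 symbols and mouse 2276 for 35.5% of all genes tested. Without mouse 2276, 17 of the other replication and 13 of the other mitosis genes were called higher, where 12.4% of all genes were, and without WT mouse 2281 the counts were 5 and 2, where 2.22% were. Rescaled to the same FPKM sum the counts were 4 and 1 (2.84% of all genes), under quantile normalization 4 and 4 (6.19%), and with array weights 15 and 12 (10.5%). Without the filter they were 12 of 47 and 14 of 60 (4.91%), and at a filter of 1 FPKM 4 and 3 (4.82%).

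**Figure D4:**
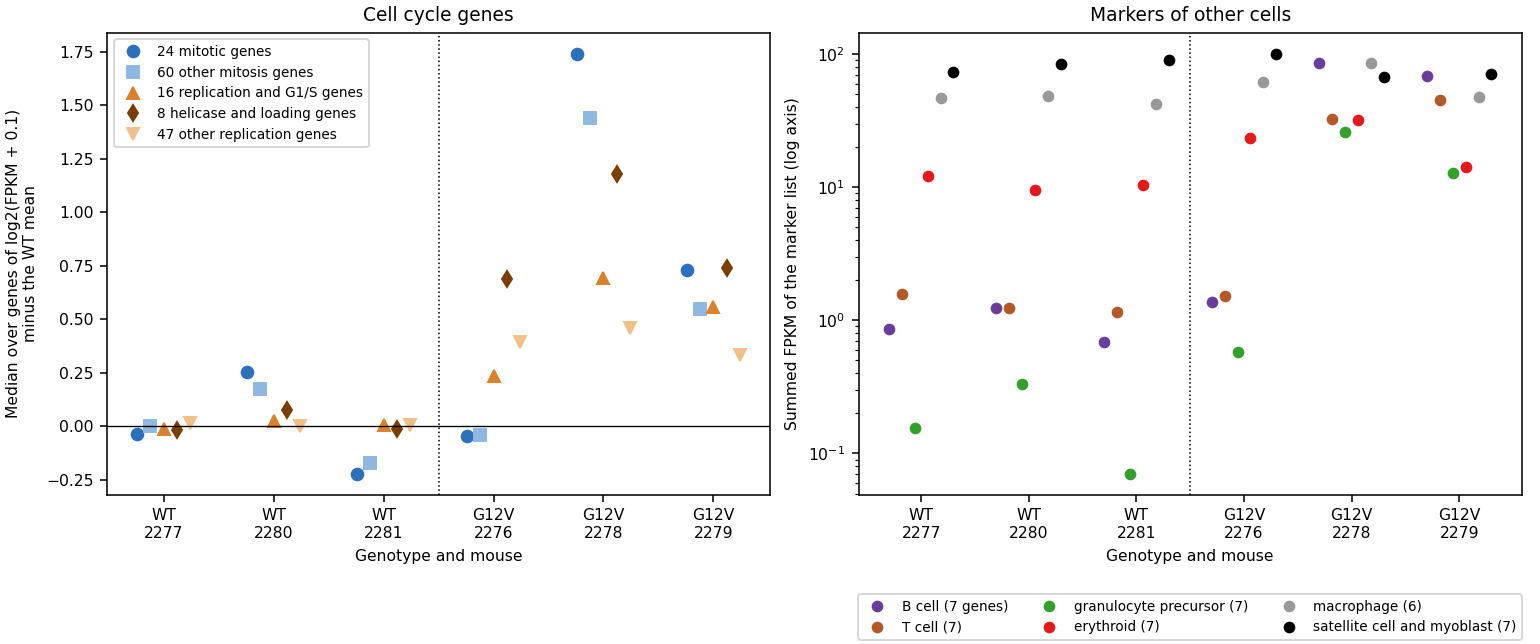
Left, the median over each gene list of log2(FPKM + 0.1) minus the WT mean in each mouse. Right, the summed FPKM (log axis) of marker genes of other cells in each mouse. The mitotic lists were at 1.74 and 1.44 in mouse 2278 and near 0 in mouse 2276, the helicase genes were at 0.69 in mouse 2276, and the B cell, T cell and granulocyte precursor markers were high in mice 2278 and 2279.

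Upstream of S phase, 3 of 11 G1 cyclins and related factors were called higher and 0 lower, where 5.18% and 4.99% of all genes tested were. Ccnd1, the D cyclin induced by Ras signalling, had an FPKM of 3.501, 3.75 and 3.19 in WT mice and of 7.94, 11.6 and 4.30 in HrasG12V mice 2276, 2278 and 2279 (log2 fold change 1.06, standard error 0.35, limma unadjusted p = 0.0196, adjusted p = 0.439). Mouse 2279 was the lowest of the mutants and still above every WT mouse. E2f2 had an FPKM of 1.09 to 1.84 in WT mice and of 1.96 to 3.69 in HrasG12V mice (0.89, limma unadjusted p = 0.0245, adjusted p = 0.454), and Myc of 2.63 to 3.38 and of 3.495 to 5.95 (0.64, limma unadjusted p = 0.0281, adjusted p = 0.468). The lowest of the list was E2f3 at -0.44 (limma unadjusted p = 0.0618, adjusted p = 0.513). The calls of Ccnd1, E2f2 and Myc held in 1, 3 and 2 of the 6 sets of 5 mice.

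Among 19 brakes on the cycle, 16 were tested, 0 were called higher and 1 was called lower, beside the same shares of all genes. Wee1, the kinase that holds Cdk1 inactive, had an FPKM of 2.29, 2.20 and 3.10 in WT mice and of 1.57, 1.93 and 1.77 in HrasG12V mice (log2 fold change -0.49, standard error 0.20, limma unadjusted p = 0.0460, adjusted p = 0.488). Its groups did not overlap, but the call held in 0 of the 6 sets of 5 mice. Btg1, an antiproliferative factor abundant in lymphocytes, was highest of the list with an FPKM of 8.04 to 9.63 in WT mice and of 7.63, 18.4 and 23.9 in HrasG12V mice 2276, 2278 and 2279 (0.80, limma unadjusted p = 0.0952, adjusted p = 0.561). Cdkn1c, the p57 inhibitor of cyclin-dependent kinases, was lowest with an FPKM of 39.9 to 67.8 in WT mice and of 53.7, 29.8 and 24.6 in HrasG12V mice (-0.68, limma unadjusted p = 0.0989, adjusted p = 0.567).

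Transcripts of B cells, T cells and granulocyte precursors were high in mice 2278 and 2279. The summed FPKM of 7 B cell markers was 0.69 to 1.23 in WT mice, 1.38 in mouse 2276, and 85.4 and 68.8 in mice 2278 and 2279, and that of 7 T cell markers was 1.15 to 1.57, 1.51, 32.7 and 44.9. All 14 of these markers were above every WT mouse in mice 2278 and 2279, and in mouse 2276 Ms4a1 and Cd8a were at 0. Of 19388 symbols, 34% were above every WT mouse in mouse 2278 and 34.6% in mouse 2279. All 7 markers of each list passed the filter only through the HrasG12V mice. All 7 B cell markers were highest in mouse 2278 and all 7 T cell markers in mouse 2279, where 16.6% and 17.6% of all genes tested were highest. Markers of granulocyte precursors, 7 granule protein genes transcribed mainly in the marrow, summed to 0.0703 to 0.331 in WT mice, 0.580 in mouse 2276, and 26.1 and 12.8 in mice 2278 and 2279. The order of those mice was that of the mitotic genes, with all 7 markers highest in mouse 2278. Of the 7, 4 were at 0 in mouse 2276, as were 4 in each of WT mice 2277 and 2281 and 1 in WT mouse 2280.

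Erythroid and adipocyte markers had the same order by their medians. As log2 differences from WT, these medians were 0.24, 2.05 and 1.35 in mice 2276, 2278 and 2279 for 7 erythroid genes and 0.16, 2.22 and 2.11 for 7 adipocyte genes, beside -0.05, 1.74 and 0.73 for the mitotic genes. The adipocyte medians of the single WT mice were 0.66, 0.82 and -1.53. The erythroid genes summed to 9.51 to 12.1 in WT mice and to 23.5, 32.0 and 14.1 in mice 2276, 2278 and 2279, most of it from Alas2 (9.69 of it in the WT mean), with 1 gene at 0 in mouse 2276 (Klf1) and 1 in WT mouse 2280. The adipocyte genes summed to 407 to 734 in WT mice and to 827, 1001 and 913 in those mice, with none at 0. Macrophage markers (6 genes) summed to 41.9 to 48.5 and to 61.5, 86.0 and 47.5, with none at 0. Satellite cell and myoblast markers (7 genes, Pax7 among them) summed to 73.0 to 89.5 in WT mice and to 101, 66.7 and 70.2 in mice 2276, 2278 and 2279. A sum does not show single genes, and 1 of these 7 was called higher and 0 lower (5.18% and 4.99% of all genes tested). For 2 of the 7 every HrasG12V mouse lay above every WT mouse, and for 0 below (7.55% and 8.54% of 19388 symbols). The highest sum of that list was in mouse 2276. Endothelial markers summed to 176 to 214 in WT mice and to 156 to 161 in HrasG12V mice, and fibroblast markers to 2039 to 4605 in WT mice and to 844, 3541 and 959 in mice 2276, 2278 and 2279, with none of these genes at 0. The part of any of these cells in the mitotic or replication values was not tested.

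In mouse 2276 the T cell sum was within the WT range, the B cell and granulocyte precursor sums were above every WT mouse at 1.38 and 0.580 FPKM (WT mean 0.925 and 0.185), and the erythroid and macrophage sums were 23.5 and 61.5. There Mcm2, Mcm3, Mcm5 and Mcm7 were 1.86, 1.67, 1.85 and 1.61 times the WT mean. That library had the highest FPKM sum, and its 10 most abundant genes held 29.9% of it, against 18.6% to 24.2% in the other libraries. With all libraries rescaled to the same FPKM sum, 0 of the mitotic and 0 of the replication genes had a limma unadjusted p below 0.05, and the 7 genes called had p of 0.0560 to 0.116 with almost the same log2 fold changes, from 0.65 for Mcm7 to 1.58 for Mcm5. All genes tested lost calls under this rescaling, to 2.84% higher and 2.49% lower.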

How the data were processed

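Gastrocnemius RNAseq of 3 HrasG12V and 3 WT mice was used. The authors deposited FPKM from Cuffnorm, 1 value per symbol and library, made with TopHat and Cufflinks from stranded single-end libraries. The submitters' processing notes name GRCm38 and mm10, with tool versions and annotation not given in the sources used here. Steps of whole reads were looked for among low values, and the fullest interval of their ratios held 1.16% to 8.53% of genes over 15 pairs of libraries, so no count model was used. Then 0.1 was added, genes with a mean of at least 0.5 FPKM were kept, and limma 3.58.1 under R 4.3.3 compared log2 values (trend, no covariate, two-sided, Benjamini-Hochberg over 13359 genes). This scale understates the change of low genes. The members, lists and tests were chosen with earlier results of these data known. Values are given for each member with an unadjusted p below 0.05, for 15 markers whatever their p, and for the ends of each other list. Nothing says that the libraries share batches. On simulated data 183 to 191 of 200 genes changed by 2 (log2) were recovered at an unadjusted p below 0.05, with at most 5.72% false calls. That change is larger than any of the members' (at most 1.65), and errors were drawn independently for each gene. The simulation therefore does not measure power or false calls for the members. Alternatives were other pseudocounts, filters, scalings, moderation, array weights and leaving out mice. Tables were made with pandas 2.3.3 and numpy 2.4.6, and figures with matplotlib 3.10.9, under Python 3.11.15. Gene positions and promoters came from RefSeq on GRCm38.p6. An exact permutation test of 3 against 3 cannot go below 0.10 and was not used.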

Additional observations from a re-analysis of the deposited data

How the results depend on the processing

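No paired analysis was possible because the mice of the 2 groups share no replicate numbers. The direction of the 7 genes called was kept under every alternative that tested them. For these 7 every HrasG12V mouse lay above every WT mouse, so leaving out mice or changing the pseudocount could not reverse it. The count of genes called (1358) was 712 after rescaling to the same FPKM sum and 3042 with array weights, and it ranged from 606 to 3979 when 1 mouse was left out. The count after adjustment (8) was 5 at a pseudocount of 1, 1 without moderation and 572 with array weights, and ranged from 7 to 1291. Mitotic genes called (2) were 0 after rescaling, 1 without moderation and 9 with array weights, and ranged from 1 to 10. Replication genes called (5) were 3 at a filter of 1 FPKM, 0 after rescaling and 8 with array weights, and ranged from 4 to 9. The replication median was 0.63 with array weights and ranged from 0.25 to 0.65, and the mitotic median from 0.42 to 1.13. Without mice 2278 and 2279, chosen after seeing the data, 6312 genes were called, 4200 after adjustment and 1 mitotic gene. Quantile normalization turned Tyms to -0.095 and E2f1 to -0.16, and array weights Ska3 to 0.25. With 1 mouse left out, E2f1 ranged from -0.18 to 0.11, Ska3 from -0.27 to 0.28, Rrm2 from -0.12 to 0.92 and Tyms from -0.019 to 0.40. Without both mice Rrm2 was -0.85, E2f1 -0.19, Mki67 -0.35, Top2a -0.063 and Btg1 -0.16. The cause of these moves was not tested. No read count of a single library was used here, which limits the genes below 0.5 FPKM most.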
